A study of Mus musculus with 2 samples.

Results

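The serpin family genes of mouse adrenal gland are described here, as every gene whose deposited name is Serpin, a clade letter from a to i, a number and at most 1 further letter. The annotation holds 63 such genes, 61 of them protein coding, and 35 had at least 1 read, of 18168 genes with reads in the tables. Replicate 1 held 20 of the 35 and replicate 2 held 33. The libraries were long-read RNA-seq of total RNA from adrenal gland tissue of male B6CASTF1/J mice aged 25 days, first-generation hybrids of C57BL/6 and CAST/EiJ, with no treatment given in the labels. Both belong to 1 group, so the design compares no conditions, and every test below sets replicate 1 against replicate 2. The library descriptions name 1 animal for both while the tissue descriptions name different animals, so the labels do not settle whether the libraries come from separate animals. The p-values compare the reads of 1 library with those of 1 other, reflect counting error alone and estimate no spread between animals. The labels state an RNA input of 1 µg for replicate 2 and none for replicate 1.

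Serpins are proteins of a common fold, most of which inhibit serine or cysteine proteases as suicide substrates. The protease cleaves an exposed stretch near the carboxyl terminus, the reactive centre loop, and is then trapped in a covalent complex, so the loop's sequence sets which protease is bound. Several clades hold secreted plasma proteins, made mainly by hepatocytes, that control coagulation, fibrinolysis, complement and leukocyte proteases. Clade B serpins mostly stay inside cells. Some members inhibit nothing: Serpina6 (corticosteroid-binding globulin) carries the glucocorticoids that the adrenal cortex secretes, and Serpinh1 (HSP47) is the collagen chaperone of the endoplasmic reticulum.

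Replicate 1 held 752432 reads in annotated mouse genes and replicate 2 held 1210671. Levels are reads per 1000000 of these (CPM). The limit behind a count of 0 is 3 reads per library, equal to 3.99 CPM in the first and 2.48 CPM in the second. Intervals are 95% intervals, and intervals, standard errors (SE), p-values and limits cover counting error only. The labelled tissue was present in both libraries, since all 7 adrenal cortex markers (61457 and 25032 CPM in sum) and all 6 chromaffin markers (9435 and 7129 CPM) had reads. Other cell types were not matched between the libraries. The 10 hepatocyte markers summed to 2.66 CPM in replicate 1, where Alb alone had reads (2) and the other 9 were at 0, and to 43218 CPM in replicate 2, where all 10 had reads. The 8 skeletal muscle markers summed to 2526 and 1.65 CPM, with 6 at 0 in replicate 2. Stromal markers summed to 1348 and 1064, endothelial to 482 and 346, granulocyte and macrophage to 154 and 123 and adipocyte to 2916 and 1937 CPM, while kidney markers had 0 and 2 reads and pancreas markers none. In such tissue libraries, fewer cells of a type and less RNA per cell cannot be told apart.

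The family took 878 reads in replicate 1 and 35933 in replicate 2, which is 1167 and 29680 CPM (15424 ± 20162, SD, n = 2), or 0.117% and 2.97% of gene reads. Of the 14 genes listed as plasma serpins made mainly by hepatocytes, 13 had reads, with 7 reads in replicate 1 and 34048 in replicate 2 (9.30 and 28123 CPM). This hepatic group was 3023-fold higher in replicate 2 (1467 to 7519). The other 22 members with reads summed to 871 and 1885 reads (1158 and 1557 CPM), a 1.35-fold ratio (1.24 to 1.46). With TMM factors the latter sums were 1026 and 1757 CPM. Hepatic members were therefore 0.797% of the family's reads in replicate 1 and 94.8% in replicate 2, beside hepatocyte markers at 2.66 and 43218 CPM; the part of hepatocyte RNA in these sums was not tested.

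Of 25 members with at least 10 reads over both libraries, 17 were called higher in replicate 2, against 11.5% of the 11382 genes tested, and 4 lower, against 25.3% (two-sided Fisher's exact test with Benjamini-Hochberg adjustment, threshold 0.05). With TMM factors the split was 17 higher (17.7% of all genes) and 2 lower (13.7%), and with DESeq2 size factors 17 (19.3%) and 1 (12.2%). With an assumed coefficient of variation of 0.2 it was 16 (6.85%) and 0 (6.53%), the 0 lower members standing beside 4 by Fisher's exact test. The median log2 ratio of replicate 2 to replicate 1 was 9.98 over 13 hepatic members, or 8.31 with the 9 that had 0 reads in replicate 1 at their bound. It was -0.16 over the 12 other members tested and -0.34 over all genes tested. The other scalings shift every log2 ratio, TMM by 0.35 and size factors by 0.40, so single calls near no change depend on them. All 13 hepatic members tested were higher in replicate 2, but 9 of them had 0 reads in replicate 1. The other 4 had 1 to 3 reads there, so all 13 passed the minimum through replicate 2 alone. Of the 12 others 4 were higher, 4 lower and 4 not called. Among these higher ones, Serpina3n (2 and 73 reads) also passed the minimum through replicate 2 alone.

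**Figure D1:**
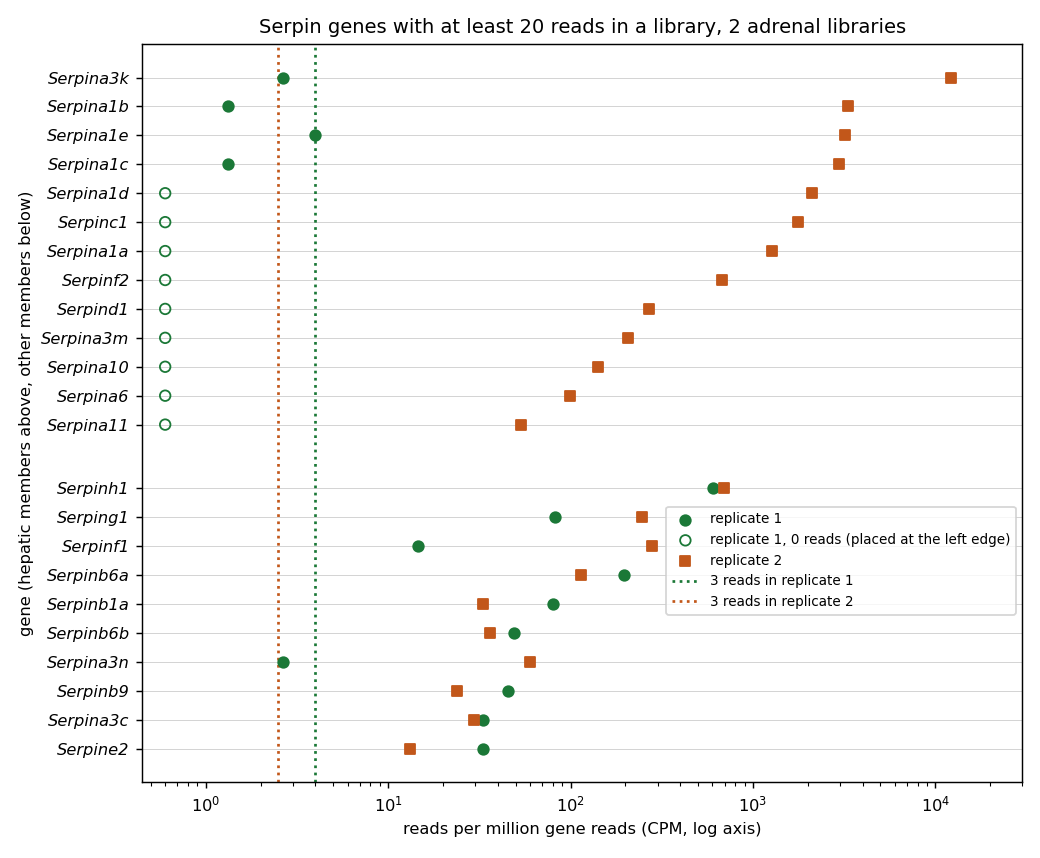
CPM of the 23 serpin genes with at least 20 reads in a library (log axis), with replicate 1 as circles and replicate 2 as squares. Hepatic members lie at or below the 3-read limit of 3.99 CPM in replicate 1 and between 53.7 and 12104 CPM in replicate 2, while most other members lie closer together.

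Among the antitrypsin genes, Serpina1a to Serpina1e on chromosome 12, humans have 1 gene where the mouse has several tandem copies whose products differ in the proteases they bind. Serpina1b had 1 read in replicate 1 and 3998 in replicate 2 (1.33 and 3302 CPM), a 2485-fold ratio (446 to 98167). Serpina1e had 3 and 3850 reads, a 798-fold ratio (273 to 3869), and Serpina1c 1 and 3569 reads, a 2218-fold ratio (398 to 87636). All of these stood far above counting error, although replicate 1 gave only 1 to 3 reads a gene. Serpina1d had 0 and 2545 reads (at least 527-fold higher in replicate 2) and Serpina1a 0 and 1535 reads (at least 318-fold higher). Serpina1f, which lies in the same cluster, had no read in either library.

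The reactive centre loop is a stretch of the coding sequence in which these paralogs differ, so it is shown for each, from the hinge to the conserved segment after the loop (coding bases 1087 to 1167 of 1239, all in exon 5 of 5, GENCODE M21 transcripts). Capitals mark bases that are not the same in all 5 genes.
Serpina1a: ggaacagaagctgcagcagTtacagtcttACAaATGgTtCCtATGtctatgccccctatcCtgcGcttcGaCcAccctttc
Serpina1b: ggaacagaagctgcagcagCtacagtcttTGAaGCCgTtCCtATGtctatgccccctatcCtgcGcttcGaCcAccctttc
Serpina1c: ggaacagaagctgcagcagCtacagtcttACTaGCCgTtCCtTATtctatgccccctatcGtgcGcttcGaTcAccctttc
Serpina1d: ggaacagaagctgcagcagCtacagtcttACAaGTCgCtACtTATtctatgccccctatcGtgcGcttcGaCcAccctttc
Serpina1e: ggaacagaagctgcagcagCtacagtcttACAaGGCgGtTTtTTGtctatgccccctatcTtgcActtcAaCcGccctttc
On mm10 these stretches lie on the minus strand at chr12:103853750-103853830, chr12:103728317-103728397, chr12:103895087-103895167, chr12:103763755-103763835 and chr12:103947093-103947173. In this stretch 18 of 81 bases varied (22.2%), against 68 of the other 1158 coding bases (5.87%). Of its 27 codons, 11 encoded more than 1 amino acid among the 5 genes (40.7%), against 36 of the other 386 (9.33%). The hinge at the left is nearly the same in all 5, and most capitals stand in the middle of the stretch, where the loop is cut. Serpina1c and Serpina1a were most alike over the whole coding sequence, with 19 differing bases (98.5% identity), but 10 of the 19 lay in the loop stretch. Over the 10 pairs, 19 to 46 of 1239 bases differed.

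Reads were divided unequally among the 5 in replicate 2, where 15497 reads carried a Serpina1 name. Serpina1b held 25.8% (25.1 to 26.5), Serpina1e 24.8% (24.2 to 25.5) and Serpina1c 23.0% (22.4 to 23.7). Serpina1d held 16.4% (15.8 to 17.0) and Serpina1a 9.91% (9.44 to 10.4). The intervals of Serpina1b and Serpina1e overlapped, and the others lay apart from their neighbours. Replicate 1 held 5 Serpina1 reads, too few for a balance. At identities of 96.3% to 98.5% a read's gene can be uncertain, and reads of CAST/EiJ alleles were assigned on a C57BL/6 reference, so shares carry an error that the intervals leave out.

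**Figure D2:**
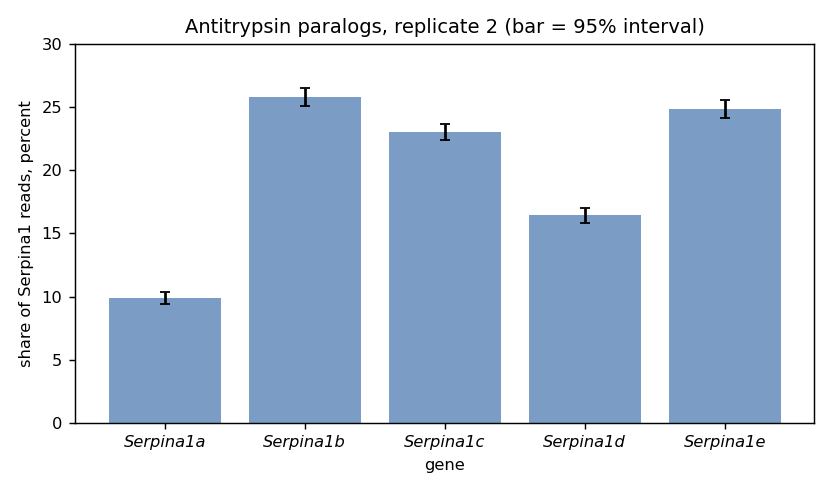
Share of the 15497 Serpina1 reads of replicate 2 held by each paralog, in percent, with 95% Clopper-Pearson intervals. Serpina1b and Serpina1e lead at 25.8% and 24.8%, and Serpina1a is lowest at 9.91%.

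Some models joined exons of several paralogs. In replicate 2, 29 Serpina1 models with 126 reads (0.813% of Serpina1 reads, 0.678 to 0.967) overlapped exons of 2 or more Serpina1 genes, and 17 of the 29 had a single read. Exons of Serpina1b and Serpina1d were joined in 11 models (75 reads), and those of Serpina1c and Serpina1e in 8 models (40 reads). The most-read such model had 32 reads, 4 exons and a span of 39.4 kb. Across the family there were 34 joined models with 135 reads in replicate 2. There were none among the 878 reads of replicate 1, which allows a share of up to 0.419% of family reads. Only 5 of those 878 were Serpina1 reads, so replicate 1 sets no useful limit on joined Serpina1 models. How these models arose was not tested. The annotated interval of Serpina1b (chr12:103728156-103830373) itself encloses that of Serpina1d (chr12:103763594-103773592).

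The antichymotrypsin clade, Serpina3, was held by different members in the 2 libraries. Serpina3k, a secreted liver paralog known as contrapsin (chr12:104338486-104346144), had 2 and 14654 reads (2.66 and 12104 CPM), a 4554-fold ratio (1260 to 37605), and was the most-read member of the family in replicate 2. Serpina3m had 0 and 251 reads (207 CPM in replicate 2), at least 52.0-fold higher there. Of the 251, 31 reads belonged to 1 single-exon model that lay on Serpina3k exons, which leaves 220 reads (182 CPM) elsewhere. The 52.0-fold bound counts all 251 and would be lower on the 220. Serpina3n, an acute-phase gene that many tissues express besides liver, had 2 and 73 reads (2.66 and 60.3 CPM), a 22.7-fold ratio (6.06 to 191, adjusted p = 5.84e-12, Fisher's exact test). Serpina3c had 25 and 36 reads (33.2 and 29.7 CPM) and was not called (log2 ratio -0.17 ± 0.37 SE, adjusted p = 0.812, Fisher's exact test). Unlike the hepatic paralogs, Serpina3c stood at like levels in a library with 2.66 CPM and one with 43218 CPM of hepatocyte markers.

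Of 31 Serpina3 reads in replicate 1, Serpina3c held 80.6% (62.5 to 92.5) and Serpina3k 6.45% (0.791 to 21.4). Of 15017 in replicate 2, Serpina3k held 97.6% (97.3 to 97.8) and Serpina3c 0.240% (0.168 to 0.332). The share of Serpina3k differed between the libraries (adjusted p = 7.21e-44, Fisher's exact test over 4 clades). Serpina3k was tested because it had the most clade reads over both libraries together, nearly all of them from replicate 2. The test therefore adds no support beyond the counts given above. Among the other letters, Serpina3b, Serpina3f, Serpina3g and Serpina3h had at most 1 read in a library, and Serpina3a, Serpina3i and Serpina3j none. The loop stretches of the 4 Serpina3 genes with 20 or more reads in a library are shown because this region differs in length as well as in sequence; those of Serpina3c and Serpina3n were added after their values were seen. Capitals mark the stretch between the hinge and the conserved segment after the loop.
Serpina3k: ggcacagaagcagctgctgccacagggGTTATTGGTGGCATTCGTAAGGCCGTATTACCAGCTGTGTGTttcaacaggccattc
Serpina3m: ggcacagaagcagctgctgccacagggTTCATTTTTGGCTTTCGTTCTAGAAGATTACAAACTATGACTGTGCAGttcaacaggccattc
Serpina3c: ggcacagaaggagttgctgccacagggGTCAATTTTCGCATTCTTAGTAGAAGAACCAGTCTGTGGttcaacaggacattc
Serpina3n: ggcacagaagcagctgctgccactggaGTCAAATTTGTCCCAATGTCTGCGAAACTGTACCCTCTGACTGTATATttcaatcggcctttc
They lie in exon 5 of 5 on mm10 at chr12:104345269-104345352, chr12:104393769-104393858 and chr12:104413448-104413537 on the plus strand and at chr12:104147307-104147387 on the minus strand. The capitalised part ran to 42 bases in Serpina3k, 48 in Serpina3m and Serpina3n and 39 in Serpina3c, where the Serpina1 stretches were all of 1 length. Aligned coding sequences of these 4 were 82.7% to 91.3% identical, further apart than the Serpina1 genes.

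The hormone carrier Serpina6 (corticosteroid-binding globulin, chr12:103646630-103657212) had 0 reads in replicate 1 and 120 in replicate 2 (99.1 CPM), at least 24.9-fold higher there. Serpina7, the thyroxine-binding globulin gene on chromosome X and the 1 listed hepatic member with no read, was at 0 in both. Serpina6 had no read in the library with the higher sum of cortex markers and was found in the one with 43218 CPM of hepatocyte markers. The source of its reads was not tested.

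Serpins of coagulation and fibrinolysis showed the same split. Serpinc1, antithrombin (chr1:160978585-161005863), had 0 and 2150 reads (1776 CPM in replicate 2), at least 445-fold higher there. That bound rests mostly on reads outside known transcripts. With known transcripts alone, which leave 14 reads in replicate 2, the fitted log2 ratio of Serpinc1 fell from 11.38 to 4.20 (adjusted p = 0.00525, Fisher's exact test), and with incomplete splice match reads left out it was 8.79. Serpinf2, the plasmin inhibitor, had 0 and 814 reads (672 CPM), at least 169-fold higher. Serpind1, heparin cofactor II, had 0 and 325 reads (268 CPM), at least 67.3-fold higher. Serpina10, which inhibits activated factor X with protein Z as cofactor, had 0 and 172 reads (142 CPM), at least 35.6-fold higher, and Serpina11 0 and 65 reads (53.7 CPM), at least 13.5-fold higher. The largest adjusted p among the 13 hepatic members was that of Serpina11, 6.73e-13 (Fisher's exact test). All 13 passed the read minimum through replicate 2 alone, so these p-values add no support beyond the counts. Hepatic serpin reads were 0.651 of the hepatocyte marker reads in replicate 2 (0.642 to 0.660) and 3.50 in replicate 1 (0.666 to 34.5), where the ratio rests on 7 and 2 reads. Serpina3k alone had 0.668 reads per Alb read in replicate 2 (0.654 to 0.682).

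Promoters are shown for the 2 hepatic members with the most reads among those in the RefSeq table, since these genes were read together (300 bases, 250 before the start; GRCm38.p6, minus strand). Capitals mark GTTAAT, letters that occur in binding sites of the hepatocyte nuclear factor HNF1.
Serpina1b: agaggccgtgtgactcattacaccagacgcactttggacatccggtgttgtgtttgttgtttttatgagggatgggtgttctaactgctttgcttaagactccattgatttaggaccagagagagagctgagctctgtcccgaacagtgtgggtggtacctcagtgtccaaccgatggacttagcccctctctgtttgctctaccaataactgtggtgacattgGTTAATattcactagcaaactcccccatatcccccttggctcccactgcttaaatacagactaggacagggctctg
Serpina1e: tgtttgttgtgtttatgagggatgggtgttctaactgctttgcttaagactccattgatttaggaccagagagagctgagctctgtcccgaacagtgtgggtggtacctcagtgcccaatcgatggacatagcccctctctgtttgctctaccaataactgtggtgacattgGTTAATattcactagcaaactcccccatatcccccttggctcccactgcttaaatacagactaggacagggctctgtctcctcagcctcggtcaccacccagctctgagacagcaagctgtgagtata
They lie at chr12:103738140-103738439 and chr12:103956848-103957147. Both strands were searched for GTTAAT, for the TATA box letters TATAAA, and for CAAAGTCCA, letters found in binding sites of the nuclear receptor HNF4. No matches overlapped in these windows. The first motif was found 26 bases before the RefSeq start in Serpina1b and 78 bases before it in Serpina1e, within a longer run that both windows share. The RefSeq start is not where the most-read models begin, which is 31 bases downstream of it in Serpina1b and at -1 in Serpina1e. Part of the difference in distance thus lies in where the start is placed. It occurred in 6 of 10 hepatic members with an entry (Serpina1a to Serpina1e and Serpina7), in 2 of 18 other members (Serpina3c and Serpinb8) and in 7.10% of all 32851 promoters in the table. TATAAA occurred in 1 of 10, 5 of 18 and 13.6%, and CAAAGTCCA in none of either group and 0.475%. The table held 27 of the 35 members with reads, and Serpina3k, Serpina3m, Serpina6, Serpina10, Serping1 and Serpinb1a had no entry. A match is a description of the letters, and tandem copies are not independent cases. The Serpinh1 promoter, that of the most-read non-hepatic member, held none of the 3 motifs.

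Members that many cell types express lay between these extremes. Serpinf1, pigment epithelium-derived factor, a secreted serpin that inhibits no protease (chr11:75409769-75422701), had 11 and 338 reads (14.6 and 279 CPM). Its log2 ratio was 4.19 ± 0.43 (SE; adjusted p = 6.36e-54, Fisher's exact test), a 19.1-fold ratio (10.5 to 38.6). Serping1, the C1 inhibitor that blocks complement and contact proteases (chr2:84765387-84775444), had 62 and 298 reads (82.4 and 246 CPM). Its log2 ratio was 1.57 ± 0.20 (adjusted p = 8.71e-17, Fisher's exact test). With known transcripts alone the log2 ratio of Serping1 was 4.04, and with incomplete splice match reads (part of a known intron chain) left out 4.03, so its size depends on which reads are counted. Hepatocytes are a known source of Serpinf1, Serping1 and Serpina3n, each of which was higher in the library with 43218 CPM of hepatocyte markers, and the part of that RNA was not tested.

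Serpinh1, the collagen chaperone (chr7:99345376-99353239), was the most-read member of replicate 1 and the most-read non-hepatic member of both libraries. It had 454 and 841 reads, 603 and 695 CPM (649 ± 64.5, SD, n = 2). Its log2 ratio of 0.20 ± 0.08 was called higher in replicate 2 by Fisher's exact test (adjusted p = 0.0451), but not with incomplete splice match reads left out (adjusted p = 0.127), no read minimum (0.0702), the deeper library thinned (0.111) or an assumed coefficient of variation of 0.2 (0.865). The other scalings called it higher, with log2 ratios of 0.55 with TMM factors (adjusted p = 4.01e-10), 0.61 with size factors (3.34e-12) and 0.56 with genes over 10-fold different left out of the total (1.91e-10, all by Fisher's exact test). The size of its difference thus depends on the scaling, while its sign was the same under these 3.

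Collagen folding partners of Serpinh1 did not move as 1 group. Of 16 listed genes, all tested, 2 were higher in replicate 2 (P4hb and Ppib; 11.5% of all genes tested were), 7 lower (25.3% of all genes) and 7 not called, with a median log2 ratio of -0.86 against -0.34 over all genes. With TMM factors 3 were higher (17.7% of all genes) and 4 lower (13.7%), and with size factors 4 (19.3%) and 4 (12.2%), Col3a1 turning from not called to higher with each. P4hb, a disulfide isomerase that is also a subunit of prolyl hydroxylase, had 744 and 3862 reads (989 and 3190 CPM). Col1a1, a chain of type I collagen, had 181 and 190 (241 and 157 CPM) and Col3a1 542 and 809 (720 and 668 CPM). Serpinh1 had 0.568 reads per read of Col1a1, Col1a2 and Col3a1 together in replicate 1 (0.505 to 0.638) and 0.790 in replicate 2 (0.721 to 0.866). The intervals do not overlap, and the difference was not tested.

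Intracellular clade B serpins were at like or lower levels in replicate 2. Serpinb6a, a cytosolic inhibitor of trypsin-like proteases and cathepsin G (chr13:33917918-34002794), had 148 and 138 reads (197 and 114 CPM), a log2 ratio of -0.79 ± 0.17 (adjusted p = 3.10e-05, Fisher's exact test). Serpinb1a, an inhibitor of neutrophil elastase, had 60 and 40 reads (79.7 and 33.0 CPM), a log2 ratio of -1.27 ± 0.29 (adjusted p = 7.77e-05, Fisher's exact test). Serpinb9, which inhibits granzyme B, had 34 and 29 reads (45.2 and 24.0 CPM), a log2 ratio of -0.91 ± 0.36 (adjusted p = 0.0382, Fisher's exact test). Serpinb6b had 37 and 44 reads (49.2 and 36.3 CPM) and was not called (log2 ratio -0.44 ± 0.32, adjusted p = 0.345, Fisher's exact test). Both libraries read all 4, and each CPM was lower in replicate 2.

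The calls on the lower members depended on the settings used. With TMM factors Serpinb1a (log2 ratio -0.92) and Serpinb6a (-0.44) were still called lower and Serpinb9 was not (adjusted p = 0.264). The Serpinb9 call was also lost with known transcripts alone (adjusted p = 0.187), the genomic class left out (0.0799), incomplete splice match reads left out (0.100) and no read minimum (0.0600, all by Fisher's exact test). With DESeq2 size factors Serpinb1a alone was (adjusted p = 0.0139, Serpinb6a 0.0791), and with an assumed coefficient of variation of 0.2 none was. Granulocyte and macrophage markers, a possible source of clade B transcripts, summed to 154 and 123 CPM (3 and 4 of 6 with reads, S100a8 and S100a9 at 0 in both); their part in these differences was not tested. The cortex markers, also lower in replicate 2, were 61457 and 25032 CPM.

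Within clade B, each group of paralogs was read from 1 main gene in both libraries. Serpinb6a held 80.0% of Serpinb6 reads in replicate 1 (73.5 to 85.5, 185 reads) and 75.8% in replicate 2 (68.9 to 81.9, 182 reads), a difference that was not called (adjusted p = 0.758, Fisher's exact test). The ratio of Serpinb6a to Serpinb6b reads was 4.0 (2.77 to 5.90) and 3.14 (2.22 to 4.51). Serpinb1a held 96.8% of 62 and 97.6% of 41 Serpinb1 reads, with Serpinb1b at 2 and 1 reads, and all 34 and 29 Serpinb9 reads fell on Serpinb9 itself. Serpinb6c, Serpinb6d, Serpinb6e, Serpinb1c and the 6 lettered Serpinb9 genes had no read, and neither had Serpinb3a to Serpinb3d.

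Serpine2 (protease nexin-1), a cell-surface inhibitor of thrombin and plasminogen activators, had 25 and 16 reads (33.2 and 13.2 CPM). Its log2 ratio of -1.31 ± 0.46 was called lower (adjusted p = 0.0126, Fisher's exact test), but not with TMM factors (0.106), size factors (0.145) or the deeper library thinned (0.227). Of the other members with at least 10 reads, Serpinb8 had 4 and 6 reads and Serpini1 (neuroserpin) 4 and 7. Both lie just inside the minimum and were not called (adjusted p = 1.00 for both, Fisher's exact test). Just outside it were Serpina9 with 0 and 8 reads and Serpina12 (vaspin) with 0 and 4. In all, 12 members had 1 to 19 reads in their deeper library, and the remaining 4 of them outside the Serpina3 clade were Serpina5 (0 and 2), Serpinb1b, Serpinb2 (1 and 0) and Serpinb7 (0 and 1).

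**Figure D3:**
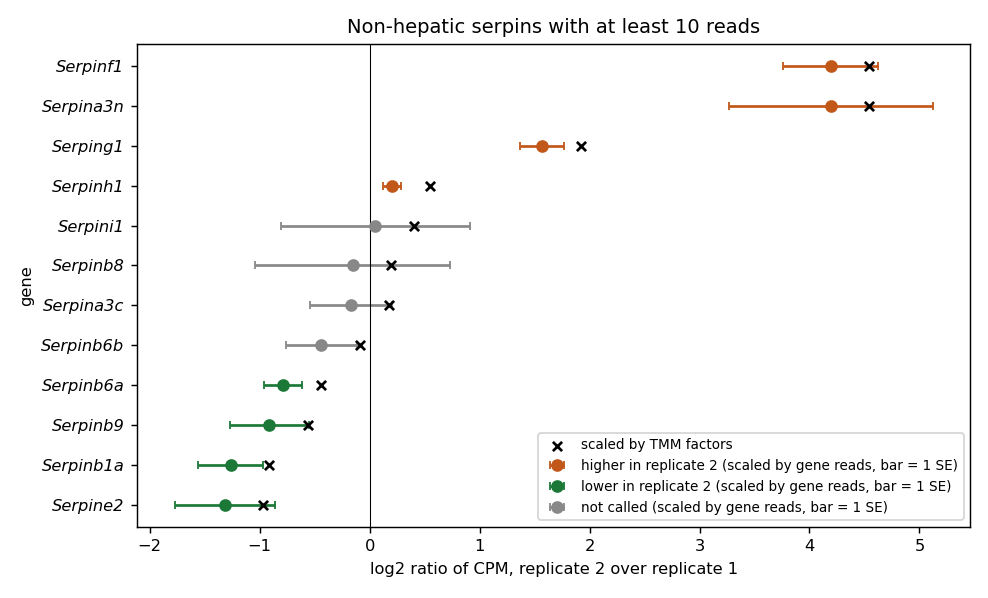
Log2 ratio of CPM, replicate 2 over replicate 1, for the 12 non-hepatic members with at least 10 reads (points with 1 SE, coloured by call; crosses, TMM factors). Serpinf1, Serpina3n and Serping1 lie above the rest, at 4.19, 4.19 and 1.57, and TMM factors shift every gene up by 0.35, which takes Serpina3c and Serpinb8, neither called, across 0.

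Proteases, receptors and cofactors that serpins act with were read alongside. Of 35 listed genes, 16 had reads in replicate 1 and 28 in replicate 2 (698 and 5836 CPM in sum). Of 27 tested, 18 were higher in replicate 2 (11.5% of all genes tested were), 2 lower (25.3% of all genes) and 7 not called. The 12 of them at 0 reads in replicate 1 passed the read minimum through replicate 2 alone. Of the others called higher, so did Vtn (1 and 1187 reads), Proc (1 and 682) and Masp2 (2 and 153). The median log2 ratio was 5.15, or 2.54 with the 12 at 0 reads set at their bound. Prothrombin (F2), the main target of antithrombin, had 0 and 1685 reads (at least 349-fold higher in replicate 2). Plasminogen (Plg), whose product Serpinf2 inhibits, had 0 and 473 (at least 98.0-fold higher). Protein Z (Proz), the cofactor of Serpina10, had 0 and 78 (at least 16.2-fold higher). As with their inhibitors, these transcripts had no read in the library that lacked hepatocyte markers apart from Alb.

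The complement targets of Serping1 were read in both libraries. C1ra had 47 and 190 reads (62.5 and 157 CPM) and C1s1 37 and 124 (49.2 and 102 CPM), log2 ratios of 1.32 ± 0.23 and 1.05 ± 0.27, both called higher in replicate 2. Masp1, a lectin pathway protease, went the other way with 111 and 41 reads (148 and 33.9 CPM), a log2 ratio of -2.11 ± 0.26. Masp2, the other lectin pathway protease listed, had 2 and 153 reads, a log2 ratio of 5.25 ± 0.92, called higher. The contact proteases F12 (0 and 440 reads) and Klkb1 (0 and 28) had reads in replicate 2 alone. The 1 lower gene besides Masp1 was Thbd, thrombomodulin, with 25 and 16 reads. Its call was lost with either other scaling (18 higher and 1 lower with each). For clade B the leukocyte proteases Elane, Ctsg, Prtn3 and Gzmb had no read in either library, whereas their inhibitors Serpinb1a, Serpinb6a and Serpinb9 did. Cathepsin L (Ctsl) had 165 and 561 reads.

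Each read is assigned to a transcript model, which the authors class as known, as an incomplete splice match (ISM, part of a known intron chain), as an unannotated combination of known splice sites (NIC), as a chain with an unannotated splice site (NNC), or as genomic. Known models took 76.3% of the family's reads in replicate 1 (73.4 to 79.1) and 82.6% in replicate 2 (82.2 to 83.0), against 77.0% and 75.6% over all genes. The other members held 76.2% and 77.3% known reads, and the hepatic members 82.9% in replicate 2. ISM models took 13.0% and 13.3% of family reads, against 9.44% and 11.9% over all genes. Single genes weigh heavily in these shares. Serping1 gave 55 of the 114 ISM reads of replicate 1, and Serpinc1 1804 of the 4790 of replicate 2. The higher family shares are thus not a trait of most members. Of the 481 models named for members in replicate 2, 224 had a single read (46.6%), against 60.8% over all genes. Serpina3k had 93.3% of its 14654 reads in the 5-exon Serpina3k-201. These 13673 reads were among the 29674 known reads of the family in replicate 2, so the known share there rests largely on this gene.

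Model ends stand for groups of reads with the same introns, so the share of reads with the first annotated intron was taken as a rough measure of 5′ reach, chosen after values were seen. Each gene's most-read annotated transcript gave that intron. Reads with another first exon count as lacking it, such as the 28.0% of Serpind1 reads in the known 5-exon Serpind1-201. Over all genes with at least 20 reads the median was 87.0% in replicate 1 (5997 genes) and 80.8% in replicate 2 (7000 genes). Over members it was 87.0% (8 members) and 84.8% (22 members). Serpinh1 had 85.9% and 85.5%, Serpinb1a 98.3% and 97.5%, and the Serpina1 genes 83.3% to 90.6% in replicate 2. Most members thus lay near the rest of the genes, and a few stood far below. A low share can reflect another first exon as well as a shorter reach, which this measure does not tell apart.

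**Figure D4:**
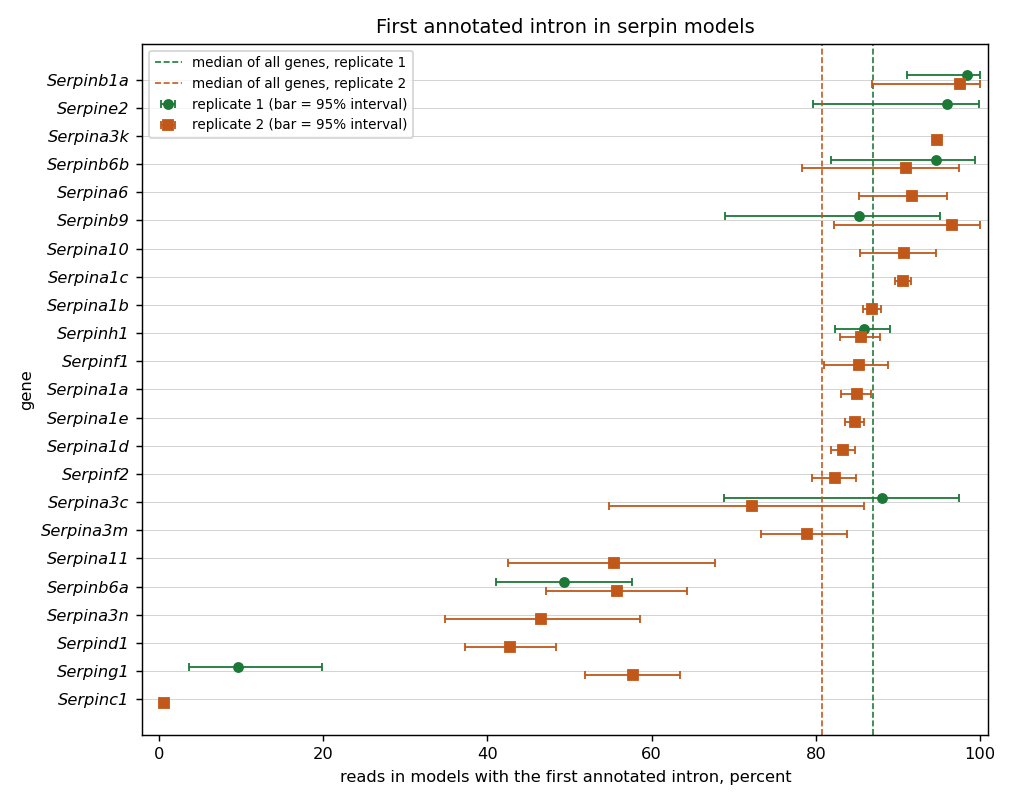
Percent of each member's reads in models that hold the first annotated intron, for members with at least 20 reads in the library (points, 95% Clopper-Pearson intervals; dashed lines, medians of all genes, 87.0% and 80.8%). Serpinc1 is lowest at 0.651%, and Serping1 differs between the libraries, at 9.68% and 57.7%.

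Serping1 was the 1 member of 7 tested whose leading model differed between the libraries, a share close to the 12% of the 5749 genes tested. The leading chain was chosen on the reads of both libraries together, and replicate 2 gave most Serping1 reads (298, against 62). The known 8-exon Serping1-201 held 6 of 62 reads in replicate 1 (9.68%, 3.63 to 19.9) and 168 of 298 in replicate 2 (56.4%, 50.5 to 62.1; adjusted p = 1.82e-10, Fisher's exact test). A 7-exon ISM model without the first intron held 48 reads (77.4%, 65.0 to 87.1) and 54 reads (18.1%, 13.9 to 23.0). The known chain thus led in replicate 2 and the shorter chain in replicate 1. The first exon of the 7-exon model (389 bases, chr2:84774740-84775128) covers exon 2 of Serping1-201 (75 bases, chr2:84774740-84774814) and reaches into the first intron, with the bounds of an exon of 1 other annotated transcript. The coding sequence of Serping1-201 begins in exon 2, so the introns that the 2 chains differ by lie outside it. Whether each of the 48 and 54 reads started there is not shown by the files.

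Serpinc1 was read almost wholly without its first annotated intron. In replicate 2, 1713 of 2150 reads (79.7%, 77.9 to 81.4) were in a 7-exon ISM model, and the known 8-exon transcript Serpinc1-201 had 14 reads (0.651%, 0.356 to 1.09). The first exon of that model (chr1:160987087-160987583, 497 bases) ends where exon 2 of Serpinc1-201 ends and extends 354 bases further upstream, 8441 bases after the annotated start, again with the bounds of an exon of 1 other annotated transcript. Here too the coding sequence begins in exon 2, at base 160987543 of chromosome 1. A single-exon genomic model near the 3′ end of the gene held a further 299 reads (13.9%, 12.5 to 15.4). The last annotated intron was present in 85.6% of the reads, so most reads of this gene were spliced at its 3′ end.

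Of the other members with split model use, Serpinb6a was tested and not called, while Serpind1 (0 reads) and Serpina3n (2 reads) had too few reads in replicate 1 to be tested. Serpinb6a-202, with 7 exons, held 73 of 148 reads (49.3%) and 77 of 138 (55.8%; adjusted p = 0.629, Fisher's exact test), and a 7-exon NIC chain 26 (17.6%) and 17 (12.3%). Serpind1 divided its 325 reads of replicate 2 among Serpind1-202 (42.5%), Serpind1-201 (28.0%) and an ISM chain (22.2%). Serpina3n had 33 of 73 reads in Serpina3n-201 (45.2%) and 28 in a single-exon ISM model (38.4%). Serpinh1-201 held 389 of 454 (85.7%) and 717 of 841 reads (85.3%; adjusted p = 1.00, Fisher's exact test). Serpinb1a, Serpinb6b, Serpinb9 and Serpina3c had leading shares of 72.2% to 96.6% and were not called. Some genomic models listed for members were too short to hold a message, such as 1 of 7 bases for Serpinh1 with 15 reads in replicate 1 and 1 of 20 bases for Serpina1c with 21 reads in replicate 2.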

How the data were processed

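The deposited tables give raw counts of reads per transcript model, 1 table a library, with no normalization by the authors. Per the file headers they rest on mm10 with GENCODE M21, and the attribute names are those of TALON; for the aligner, as for all versions, nothing is given in the sources used. Counts of a gene's models were summed and divided by reads in annotated mouse genes, leaving out spike-ins (1.39% and 1.33% of reads) and reads outside genes (3.84% and 4.85%), with no correction for length. Genes with at least 10 reads were compared by two-sided Fisher's exact tests (SciPy 1.17.1), with Benjamini-Hochberg adjustment over all of them and a 0.05 threshold; the prior for log2 ratios was 0.5 reads. Leading intron chains and clade shares were tested where both libraries had 20 reads or more. Leading chains and leading clade members were chosen on the reads of both libraries together. The tests were checked on data simulated with counting error alone, which represent neither a spread between animals nor the large differences between these libraries. Alternative scalings came from edgeR 4.0.16 (TMM) and DESeq2 1.42.0 (size factors). Named members had at least 20 reads in a library; partners and markers came from lists. The members, lists and tests were chosen with earlier results of these data known. Protein sequences were planned for the loops, and coding DNA of GENCODE M21 transcripts was used instead. Promoters are from RefSeq, GRCm38.p6.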

Additional observations from a re-analysis of the deposited data

How the results depend on the processing

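The 17 members higher in replicate 2 numbered 16 or 17 under every alternative run. Among them, the 13 hepatic members and Serpina3n passed the read minimum through replicate 2 alone, so the steady count adds little support. The 4 lower members became 2 with TMM factors, 1 with DESeq2 size factors, 2 with genes over 10-fold different left out of the total and 0 with an assumed coefficient of variation of 0.2, and 3 or 4 under the others. Those scalings move no change by construction, and the assumed variation widens every error. Of 161 recomputed log2 ratios of the 23 named members, 145 stayed on their side of the threshold and 16 lost the call, 0 called ratios changed sign, and 18 members stayed on their side throughout. Serpina3c, never called, changed sign, from -0.17 to 0.18 with TMM factors, 0.24 with size factors and 0.19 with genes over 10-fold different left out. With known transcripts alone Serpina11 moved from 6.35 to 5.75, and Serpina1b, whose 1 read of replicate 1 was an incomplete splice match, from 10.69 to 12.09, both still called. The 18 members read in both libraries became 9 at a minimum of 5 reads in each, since several rest on 1 to 4 reads. The 1 member with a different leading model became 0 with known transcripts alone, since Serping1 then has too few reads in replicate 1 to be tested. Leaving out each library in turn gave family sums of 1167 to 29680 CPM, hepatic sums of 9.30 to 28123 CPM and other sums of 1158 to 1557 CPM. Paralog shares kept their call with known transcripts alone and with incomplete splice match and genomic reads left out. No paired analysis was possible because both libraries belong to 1 group. Depth limits statements on genes at 0 reads to levels above 3.99 and 2.48 CPM.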
